A study of Mus musculus with 8 samples.

Results

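The cluster of miR-221 and miR-222 is a pair of neighbouring microRNA (miRNA) hairpins on the mouse X chromosome, and it was followed here through every arm of the hairpins that had a row in the deposited table of the BTBR and B6 hippocampus. The members were chosen by name, as both arms of miR-221 and both arms of miR-222, a rule that uses no measured value. Earlier results of these data were known when they were chosen. Of the 4 arms named, 3 had a row among the 422 miRNAs of the table: mmu-miR-221-3p, mmu-miR-221-5p and mmu-miR-222-3p, written below without the species prefix. The fourth, mmu-miR-222-5p, had no row and was not analysed here. Small RNA libraries came from hippocampal tissue of single mice, with 4 libraries of the strain BTBR T+ Itpr3tf/J (BTBR) and 4 of C57BL/6J (B6), each library from 1 mouse. All were untreated adult males of 12 weeks, from stocks bred in the same vivarium. BTBR is an inbred line used as a model of idiopathic autism and B6 is a standard inbred line, so that the comparison covers every genetic difference between these strains, and 1 strain stands for each side. Reads on miRNAs per library numbered between 2247482 and 7904990, and the library of BTBR replicate 2 was the shallowest.

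A miRNA hairpin is cut by Drosha and Dicer into a duplex of its 5p and 3p arms. One arm, the guide, is usually kept in an Argonaute protein, and the other, the passenger, is mostly lost. The guide finds messenger RNAs by its seed, the bases next to its 5′ end, and lowers their translation and stability. miR-221 and miR-222 are known as repressors of the cell cycle inhibitors Cdkn1b (p27) and Cdkn1c (p57) and of the receptor tyrosine kinase Kit, and have been studied most in endothelium, vascular smooth muscle, blood cell precursors and tumours. They are transcribed together from the minus strand, with miR-222 first.

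The hairpins and arms are shown because the arms that share a seed, and the arms that share a hairpin, are the pairs compared below. The sequences are those of RefSeq on GRCm38.p6, written 5′ to 3′. Mir221 lies at chrX:19146294-19146388 and Mir222 at chrX:19146893-19146971, both on the minus strand, with 504 bases between them, and each is annotated in GENCODE as a gene of 1 exon. No other annotated gene overlapped the 678 bases that the cluster spans. The nearest genes were Gm14636, a processed transcript on the same strand that lies 10009 bases away, and the pseudogene Gm5383, 203065 bases away on the other side. In the hairpins the arms that had a row in the table are in capitals: both arms of miR-221, the 5p arm first, and the 3p arm of miR-222.
Mir221: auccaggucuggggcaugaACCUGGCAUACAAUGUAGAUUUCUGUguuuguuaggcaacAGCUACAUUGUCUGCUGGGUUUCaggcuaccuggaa
Mir222: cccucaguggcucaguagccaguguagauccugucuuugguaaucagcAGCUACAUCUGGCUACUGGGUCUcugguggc
The mature arms follow with the seed, bases 2 to 8, in capitals.
miR-221-3p: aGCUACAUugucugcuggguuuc
miR-222-3p: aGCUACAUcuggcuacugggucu
miR-221-5p: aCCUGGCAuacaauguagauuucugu

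miR-221-3p and miR-222-3p began with the same 8 bases, and therefore shared the seed GCUACAU. Aligned from their first base, they were identical at 11 of 23 positions, and the run CUGGGU occurred in both, from base 15 in miR-221-3p and from base 16 in miR-222-3p. No other miRNA of the table with a RefSeq sequence, 367 of 422, had this seed. miR-221-5p, of 26 bases, had the seed CCUGGCA, which no other miRNA of the table with a sequence shared. Folded with RNAfold, the hairpins had minimum free energies of −42.8 kcal/mol for Mir221 and −40.7 kcal/mol for Mir222, with 21 of 26 bases paired in miR-221-5p, 21 of 23 in miR-221-3p and 19 of 23 in miR-222-3p.

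The seed match ATGTAGC, searched on the sense strand of transcripts only, was found in the 3′UTR of each of the 3 classical targets. In all, 9.42% of 20979 protein-coding genes held it in their longest annotated 3′UTR, of a median length of 954 bases. Cdkn1b held 1 match in 3439 bases, at chr6:134924431-134924437 on the plus strand. Cdkn1c held 1 match in 688 bases, at chr7:143458926-143458932 on the minus strand. Kit held 2 matches in 2177 bases, at chr5:75654992-75654998 and chr5:75656523-75656529 on the plus strand. The sites are shown with their flanks as the letters through which both 3p arms would pair, with the match in capitals. They are matches of letters and not measured sites, and messenger RNA was not analysed here.
Cdkn1b: aaagcattggATGTAGCattgcgcaat
Cdkn1c: cctttcgttcATGTAGCaggaaccgga
Kit, first match: tgggagatatATGTAGCaagactagaa
Kit, second match: aaatattgaaATGTAGCaataatgtct

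In the hippocampus of both strains the cluster was represented almost entirely by 1 arm. miR-221-3p took between 0.216% and 0.360% of the counts of a library and stood at place 31 to 45 among the 422 miRNAs, while miR-221-5p stood at place 161 to 229 and miR-222-3p at place 220 to 282. A read covers a whole miRNA, so that levels need no scaling by length, and they are given as CPM, read counts scaled to one common library size, after TMM normalization, which assumes that most miRNAs do not change. Small RNA libraries capture different sequences with different efficiency, and the part of capture in the differences between arms was not tested. The plot of levels shows each mouse.

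**Figure D1:**
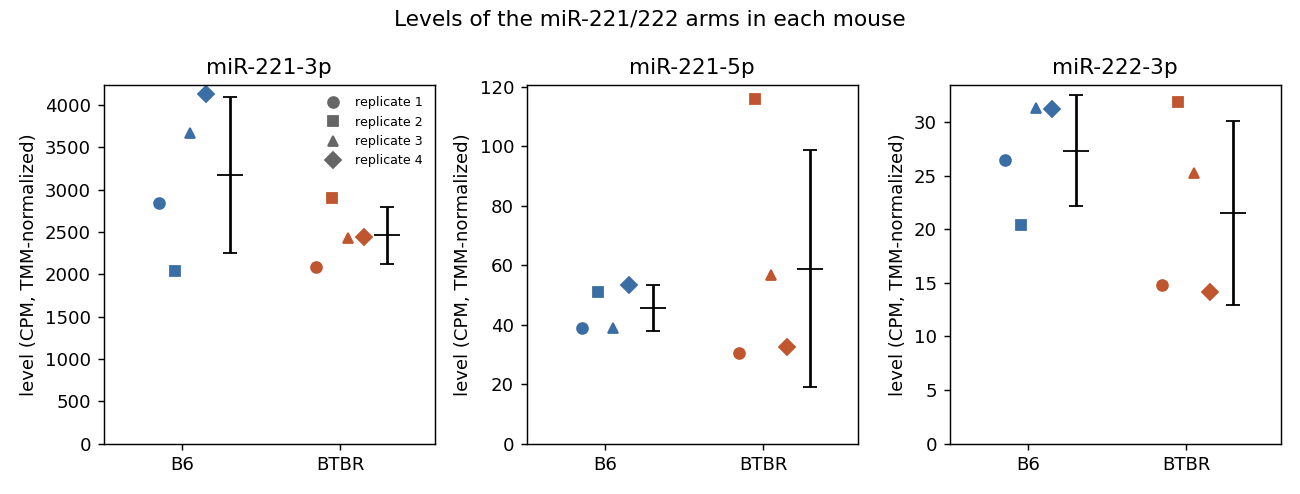
Level of miR-221-3p, miR-221-5p and miR-222-3p (CPM after TMM normalization, linear axes from 0) in 4 B6 and 4 BTBR mice, with symbols for the replicates and bars for the mean ± SD of a strain. The strains overlap in all 3 panels, and BTBR replicate 2 is the highest BTBR mouse in each, at 116 CPM for miR-221-5p.

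miR-221-3p, the abundant arm and the guide of its hairpin in these libraries by count, had 2838, 2042, 3664 and 4131 CPM in B6 replicates 1 to 4 and 2081, 2902, 2425 and 2445 CPM in BTBR replicates 1 to 4. The 4 BTBR mice all lay within the range of the B6 mice, whose highest 2 were above every BTBR mouse. The means were 3169 ± 922 CPM (SD, n = 4) in B6 against 2463 ± 337 CPM in BTBR. The log2 fold change was −0.36 (standard error 0.23, 95% interval −0.87 to 0.14), and the miRNA did not pass the threshold (edgeR quasi-likelihood, adjusted p = 0.617). On the linear scale the interval ran from 0.549 to 1.10 times the B6 level. With libraries scaled by their totals only, the log2 fold change was −0.18, and without B6 replicate 2 it was −0.49 (edgeR quasi-likelihood, unadjusted p = 0.0316, adjusted p = 0.298).

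miR-222-3p, which carries the same seed, was counted with between 71 and 155 reads per library. It had 26.5, 20.4, 31.3 and 31.2 CPM in B6 replicates 1 to 4 and 14.8, 31.9, 25.3 and 14.2 CPM in BTBR replicates 1 to 4. BTBR replicates 1 and 4 lay below every B6 mouse, whereas BTBR replicate 2 lay above all of them. The means were 27.4 ± 5.15 CPM (SD, n = 4) in B6 against 21.5 ± 8.57 CPM in BTBR. The log2 fold change was −0.36 (standard error 0.33, 95% interval −1.07 to 0.36), and the threshold was not passed (edgeR quasi-likelihood, adjusted p = 0.717). Without BTBR replicate 2 the log2 fold change was −0.63 (edgeR quasi-likelihood, adjusted p = 0.419), without BTBR replicate 1 it was −0.21 (adjusted p = 0.831), and with scaling by library totals only it was −0.18.

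miR-221-5p, the passenger of miR-221 by count, was counted with between 148 and 305 reads per library. It had 38.8, 51.0, 38.9 and 53.5 CPM in B6 replicates 1 to 4 and 30.4, 116, 56.6 and 32.5 CPM in BTBR replicates 1 to 4. BTBR replicates 2 and 3 were above every B6 mouse, and BTBR replicates 1 and 4 below every B6 mouse, so that the BTBR mice lay on both sides of the B6 range. The means were 45.6 ± 7.80 CPM (SD, n = 4) in B6 against 58.8 ± 39.8 CPM in BTBR. The log2 fold change was 0.36 (standard error 0.40, 95% interval −0.52 to 1.23), and the threshold was not passed (edgeR quasi-likelihood, adjusted p = 0.787). The sign of this difference rested on 1 library, and without BTBR replicate 2 the log2 fold change was −0.22 (edgeR quasi-likelihood, adjusted p = 0.780).

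Thus 0 of 3 arms passed the threshold of 0.1, where 7 of the 422 miRNAs (1.66%) did, and 0 of 3 had an unadjusted p under 0.05 (1 of 3, miR-221-3p, without B6 replicate 2), against 10.9% of all miRNAs. DESeq2's Wald test also called 0 of 3, against 5.65% of the 372 miRNAs to which it gave an adjusted p, edgeR's exact test 0 of 3 against 3.79%, and limma-voom 0 of 3 against 1.42%. At an unadjusted p under 0.05 these tools had 0 of 3 as well, against 10.7% of all miRNAs with DESeq2, 10.4% with the exact test and 9.0% with limma-voom. In 0 of 3 arms did the strains fail to overlap, against 6.64% of all miRNAs. The intervals still allowed changes in either direction for each arm, and a miss of the threshold does not show that the strains have the same level. The log2 fold changes of the arms and of all other miRNAs are plotted against level.

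**Figure D2:**
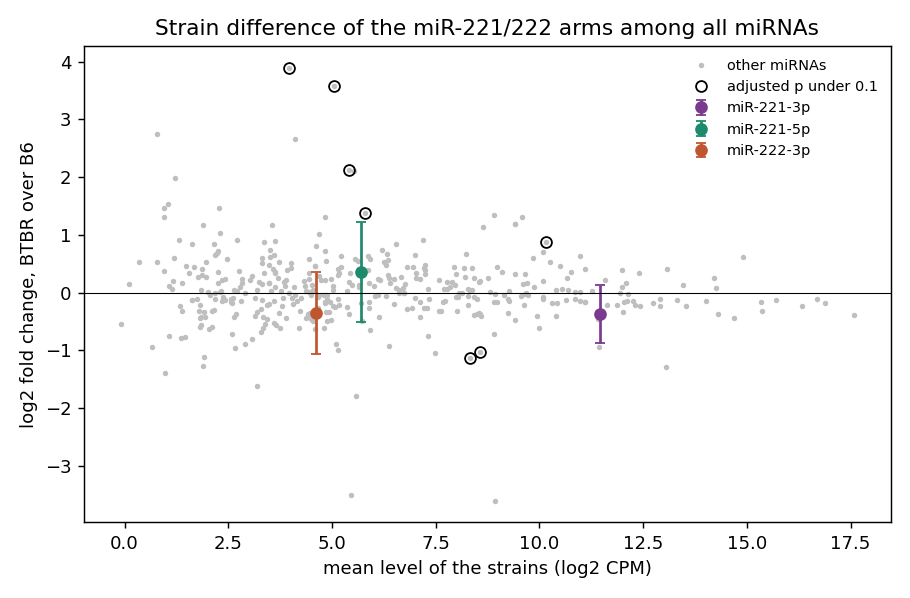
Log2 fold change of BTBR over B6 against the mean level of the strains (log2 CPM) for 422 miRNAs, with the 95% interval of the 3 arms and open circles around the 7 miRNAs with an adjusted p under 0.1. The intervals of miR-221-3p, miR-221-5p and miR-222-3p all cross 0, and none of the arms is circled.

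Ratios between arms within a library need no normalization and were compared for the 3 possible pairs, with all 70 assignments of the 8 mice to strains enumerated (exact permutation, two-sided), which allows no p below 0.0286. miR-221-3p outnumbered its seed relative miR-222-3p by 107, 100.1, 117 and 132 to 1 in B6 replicates 1 to 4 and by 141, 91.0, 95.9 and 172 to 1 in BTBR replicates 1 to 4. The BTBR ratios lay on both sides of the B6 range. The mean log2 ratio of miR-222-3p to miR-221-3p was −6.83 ± 0.17 (SD, n = 4) in B6 and −6.91 ± 0.44 in BTBR mice, a difference of −0.087 (exact permutation test, p = 0.743, 0.743 after Benjamini-Hochberg adjustment over the 3 ratios). This difference was smaller than the spread within either strain, and without BTBR replicate 4 it was 0.085. Of all reads with the seed GCUACAU, miR-222-3p gave between 0.75% and 0.990% in B6 and between 0.577% and 1.09% in BTBR mice. The summed level of both seed relatives was 3196 ± 927 CPM (SD, n = 4) in B6 against 2485 ± 344 CPM in BTBR, and followed miR-221-3p.

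**Figure D3:**
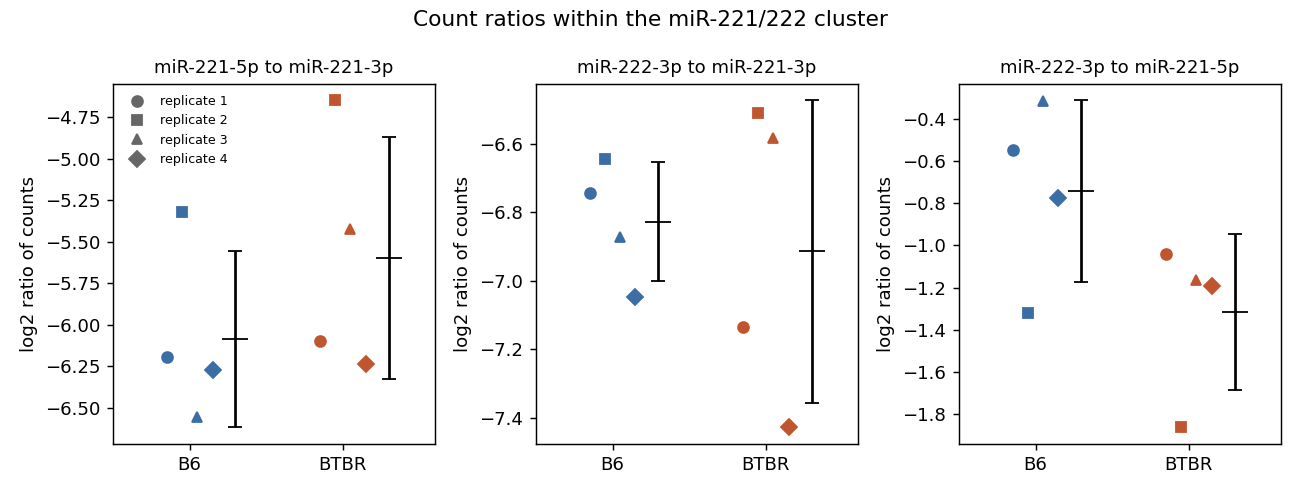
Log2 ratios of counts within the cluster in each of 4 B6 and 4 BTBR mice, with bars for the mean ± SD. In the panel of miR-222-3p to miR-221-5p, B6 replicates 1, 3 and 4 lie above all BTBR mice and B6 replicate 2, at −1.32, lies among them.

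The arms of miR-221 were counted in unequal numbers in every mouse. The 5p arm made up 1.35%, 2.44%, 1.05% and 1.28% of the reads of both arms in B6 replicates 1 to 4, and 1.44%, 3.84%, 2.28% and 1.31% in BTBR replicates 1 to 4. The highest share was that of BTBR replicate 2, with a 95% Wilson interval of 3.40% to 4.32%, and the next were B6 replicate 2 (2.18% to 2.72%) and BTBR replicate 3 (2.0% to 2.59%). The other 5 mice, of both strains, lay between 1.05% and 1.44%. The means were 1.53% ± 0.62 (SD, n = 4) in B6 and 2.22% ± 1.16 in BTBR mice. On the log2 scale the ratio of 5p to 3p differed by 0.49 between the strains (−6.09 ± 0.53 in B6 and −5.60 ± 0.73 in BTBR; n = 4, exact permutation test, p = 0.314, adjusted 0.471). This difference was 0.17 without BTBR replicate 2 and 0.74 without B6 replicate 2. Among the 99 miRNA names with both arms in the table, the strains did not overlap in the arm ratio of 2 (2.02%), miR-140 and miR-411, named after their values were seen, and miR-221 was not among them.

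miR-222-3p and miR-221-5p come from different hairpins, and miR-221-5p had more reads in every mouse. By geometric mean it outnumbered miR-222-3p by 1.67 to 1 in B6 and by 2.49 to 1 in BTBR mice. The count ratio of miR-222-3p to miR-221-5p was 0.683, 0.40, 0.803 and 0.584 in B6 replicates 1 to 4 and 0.486, 0.275, 0.447 and 0.437 in BTBR replicates 1 to 4. B6 replicates 1, 3 and 4 were above all BTBR mice, and B6 replicate 2 was below BTBR replicates 1, 3 and 4. The mean log2 ratio was −0.74 ± 0.43 (SD, n = 4) in B6 and −1.31 ± 0.37 in BTBR mice, a difference of −0.57 (exact permutation test, p = 0.114, adjusted 0.343). Without B6 replicate 2 the difference was −0.77, with all BTBR mice below the other B6 mice. The exact permutation test then gave p = 0.0286, the smallest value of the 35 assignments left, and 0.0857 after adjustment over the 3 ratios.

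BTBR replicate 2 had the most miR-221-5p, and its arm ratio was set beside those of the other hairpins. By Dixon's test it was not an outlier among the BTBR mice, with a gap over range of 0.693 for the level of miR-221-5p and 0.488 for the arm ratio, both under the critical value at the 95% level. For each hairpin the log2 ratio of the arm with fewer reads to the arm with more was expressed as a deviation from its mean over the 8 libraries. miR-221 deviated by 1.20 in BTBR replicate 2, the 13th highest of 99 there, and by 0.52 in B6 replicate 2 and 0.42 in BTBR replicate 3. In the other 5 libraries it lay between −0.71 and −0.25. The median deviation over the 99 hairpins was −0.08 in BTBR replicate 2 and lay between −0.07 and 0.10 in the other libraries, while 25 of 99 hairpins (25.3%) had their highest ratio in BTBR replicate 2 and between 6 and 16 in each of the other libraries. That library had the lowest total count, 2247482, and the part of depth in these ratios was not tested.

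**Figure D4:**
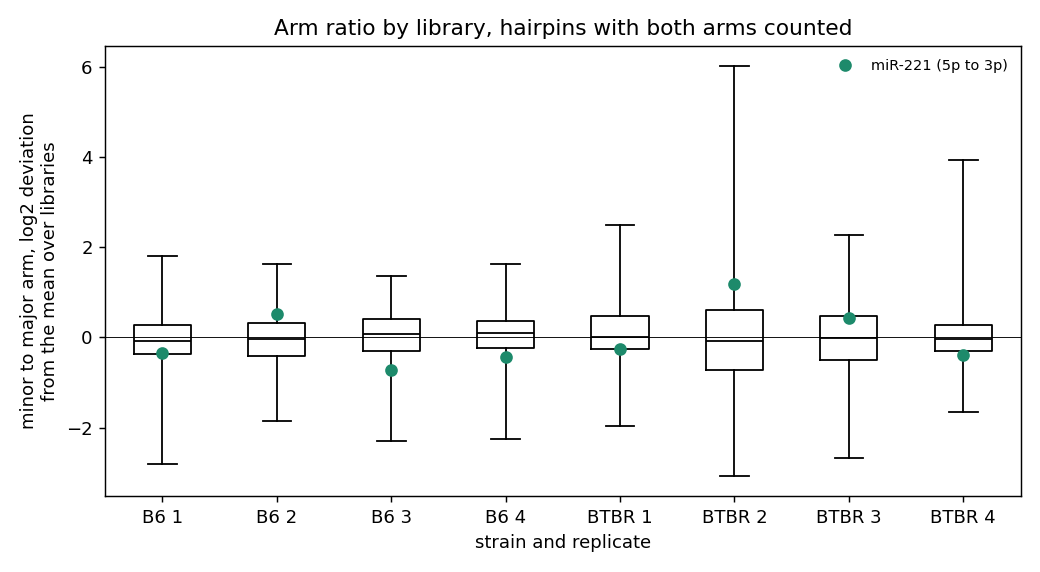
Log2 ratio of the less to the more abundant arm, as the deviation from the mean over the libraries, for 99 hairpins with both arms counted; boxes show quartiles and median, and whiskers the full range. The green points mark miR-221, which deviates by 1.20 in BTBR replicate 2 and lies between −0.71 and 0.52 in the other libraries.

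Between mice of a strain, the arms did not vary alike. The SD of log2(CPM + 0.5) of miR-221-3p was 0.45 in B6 and 0.20 in BTBR mice, against medians over the 422 miRNAs of 0.33 in B6 and 0.48 in BTBR. miR-221-5p had the opposite order, with 0.25 in B6 and 0.89 in BTBR mice, and miR-222-3p had 0.28 in B6 and 0.56 in BTBR mice. Ordered from the widest to the narrowest SD, miR-221-3p was 142nd of 422 in B6 and 382nd in BTBR mice, while miR-221-5p was 282nd in B6 and 68th in BTBR mice. As coefficients of variation of CPM, the values were 29.1% in B6 and 13.7% in BTBR for miR-221-3p, 17.1% and 67.7% for miR-221-5p, and 18.8% and 39.8% for miR-222-3p. Single mice carried much of these spreads. Without BTBR replicate 2 the BTBR values of miR-221-5p were an SD of 0.49 and a coefficient of variation of 36.5%. Without B6 replicate 2 the B6 SD was 0.28 for miR-221-3p and 0.14 for miR-222-3p. The differences in spread between strains, each from 4 mice, were not tested. Scaling by library totals only brought the SD of miR-221-3p pooled over the strains from 0.35 to 0.23.

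**Figure D5:**
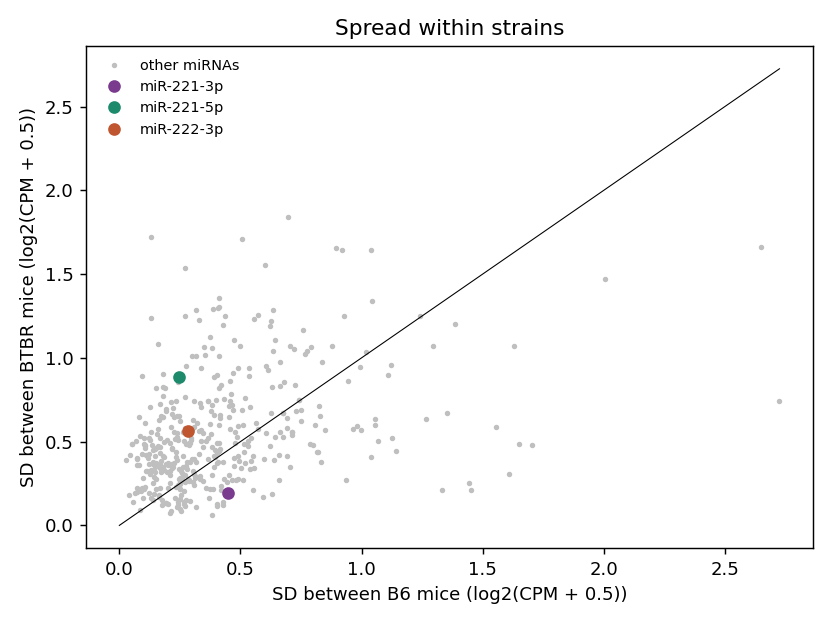
SD of log2(CPM + 0.5) between 4 BTBR mice against that between 4 B6 mice for 422 miRNAs, with a line of equal spread. miR-221-3p (0.45 in B6, 0.20 in BTBR) lies below the line, and miR-221-5p (0.25 and 0.89) and miR-222-3p (0.28 and 0.56) lie above it.

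Over the 8 libraries, which share their normalization, miR-221-3p and miR-222-3p had a Pearson correlation of log2(CPM + 0.5) of 0.75 (Spearman 0.74), and miR-221-5p and miR-222-3p one of 0.63 (Spearman 0.67). The arms of the miR-221 hairpin had the lowest correlation of the 3 pairs, 0.21 (Spearman 0.31). Without the 2 libraries farthest from the median of the first-named arm, Pearson's r was 0.68 for miR-221-3p with miR-222-3p, 0.46 for miR-221-5p with miR-222-3p and 0.49 for miR-221-3p with miR-221-5p. Taken as deviations from the strain means, the order of the first pairs turned, with 0.80 for miR-221-5p with miR-222-3p, 0.68 for miR-221-3p with miR-222-3p and 0.32 for the arms of miR-221. These are descriptions over 8 mice of both strains and were not tested.

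Outside the cluster, the miRNAs with the pattern most like each arm were named by the highest Pearson correlation of log2(CPM + 0.5) over the 8 libraries. Values picked as the highest of many are high in part by selection, and they were not tested. For miR-221-3p these were miR-1839-5p (r = 0.95, Spearman 0.95), let-7k (0.94, Spearman 0.86), a member of the let-7 family, and miR-9-5p (0.92, Spearman 0.81), an abundant miRNA of neural cells. Without B6 replicates 3 and 4, the libraries farthest from the median of miR-221-3p, r was 0.90, 0.83 and 0.76 over 6 libraries. For miR-221-5p they were miR-152-3p (0.96, Spearman 0.93), miR-148b-3p (0.96, Spearman 0.93) and miR-99b-5p (0.93, Spearman 0.83), of which the first 2 belong to the miR-148/152 family. Each of these was highest in BTBR replicate 2, as was miR-221-5p, with 272 CPM of miR-152-3p there against 62.7 to 146 CPM in the other 7 mice. Without BTBR replicates 1 and 2, r was 0.83, 0.76 and 0.60. For miR-222-3p they were miR-7220-5p (0.87, Spearman 0.98), miR-7a-2-3p (0.86, Spearman 0.83), the passenger of a miR-7 hairpin, and miR-130a-3p (0.81, Spearman 0.60). Without BTBR replicates 1 and 4, r was 0.78, 0.97 and 0.01, so that the likeness of miR-130a-3p rested on those libraries. Ordered by Spearman, let-7k was 9th and miR-9-5p 15th for miR-221-3p, and miR-130a-3p was 40th for miR-222-3p. The other miRNAs named were within the first 5 of their arm.

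Other miRNAs of related place or role were counted from lists. Of 47 arms listed from X chromosome hairpins outside the cluster, 22 had a row, and 0 of 22 passed the threshold by edgeR's quasi-likelihood test, against 1.66% of all miRNAs, with 4 of 22 at an unadjusted p under 0.05, against 10.9%. DESeq2 called 1 of the 19 to which it gave an adjusted p (miR-1298-5p; 5.65% over all miRNAs), edgeR's exact test 2 of 22 (miR-1298-5p and miR-448-3p, both choroid plexus miRNAs; 3.79%) and limma-voom 0 of 22 (1.42%), with 2 at an unadjusted p under 0.05. The strains overlapped in both of these miRNAs, and B6 varied widely, with 898 ± 1331 CPM (SD, n = 4) of miR-1298-5p and 80.6 ± 117 CPM of miR-448-3p. The log2 fold change was above 0 in 4 of 22, against 50.9% of all miRNAs, and its median was −0.24, against 0.02. miR-98-5p, a let-7 relative and the most abundant, had 5404 ± 885 CPM (SD, n = 4) in B6 against 4655 ± 797 CPM in BTBR, at a log2 fold change of −0.22. miR-676-3p (856 ± 260 CPM in B6, 741 ± 245 CPM in BTBR) and miR-384-5p (646 ± 166 and 587 ± 220.6 CPM) had log2 fold changes of −0.21 and −0.14.

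Of 14 angiogenic and endothelial miRNAs 11 had a row, and 0 of 11 passed by edgeR's quasi-likelihood test, DESeq2, edgeR's exact test or limma-voom, with 0 at an unadjusted p under 0.05 by any of them. Over all miRNAs the shares called were 1.66%, 5.65%, 3.79% and 1.42%, and 10.9% had an unadjusted p under 0.05 by the first. The log2 fold change was above 0 in 3 of 11, against 50.9% of all miRNAs, and its median was −0.14, against 0.02. Among them, miR-143-3p, of smooth muscle and pericytes, had 7269 ± 1827 CPM (SD, n = 4) in B6 against 6389 ± 1158 CPM in BTBR. miR-126a-3p, of endothelium, had 1662 ± 171 CPM in B6 against 1529 ± 377 CPM in BTBR.

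Markers of the cell types a hippocampal sample can hold were summed for each library. In bulk tissue, fewer cells of a type and less RNA per cell cannot be told apart. All 4 neuronal markers (miR-124-3p, miR-9-5p, miR-128-3p and miR-132-3p) were counted, and their sum was 50893 to 79104 CPM in B6 against 59726 to 72224 CPM in BTBR. The 4 markers of endothelium and vessel wall summed to 8863 to 13365 CPM in B6 against 6831 to 10686 CPM in BTBR. The sum was lowest in BTBR replicate 2, the library with the most miR-221-5p, and miR-143-3p was its largest part. miR-143-3p, miR-126a-3p and miR-126a-5p were each lowest in that library, whereas miR-145a-5p was highest there, with 301 CPM. Of the microglial and immune markers 5 of 6 had a row, without miR-223-3p. They summed to 1045 to 1149 CPM in B6 against 892 to 1746 CPM in BTBR, with the highest sum in BTBR replicate 2. miR-146a-5p made up 1034 CPM of that sum. In that library miR-142a-3p, miR-146a-5p, miR-150-5p and miR-155-5p were each highest, whereas miR-142a-5p was lowest, with 30.1 CPM. The 3 oligodendrocyte markers summed to 2238 to 4256 CPM in B6 against 2289 to 2922 CPM in BTBR. The choroid plexus markers, 8 of 9 with a row, summed to 5203 to 39776 CPM in B6 against 5243 to 9543 CPM in BTBR, highest in B6 replicate 1. Of the 5 red blood cell markers, miR-486b-5p repeated the counts of miR-486a-5p in every library, and the pair entered the sum once. The sum was 303 to 853 CPM in B6 against 531 to 1371 CPM in BTBR, highest in BTBR replicate 2. With both rows of the pair in the sum, BTBR replicate 2 was 2nd of the 8 libraries, with 2582 CPM against 2608 CPM in the highest. Of all markers 1, miR-451a of red blood cells, passed the threshold of the edgeR quasi-likelihood fit, where 1.66% of all miRNAs did. Of the 5 red blood cell markers, 4 had an unadjusted p under 0.05 in that fit (10.9% over all miRNAs) and all 5 a log2 fold change above 0 (50.9%). DESeq2 called 4 of 5 of them (5.65%), the identical pair included, edgeR's exact test 2 (3.79%) and limma-voom 1 (1.42%). Of the 8 choroid plexus markers 0 passed in the quasi-likelihood fit, with 4 at an unadjusted p under 0.05, while DESeq2 called 2, edgeR's exact test 3 and limma-voom 0, against the same shares over all miRNAs. Their log2 fold change was above 0 in 1 of 8, with a median of −1.12, against 0.02 over all miRNAs. The strains overlapped in each of these markers, and the B6 mice differed widely. miR-1298-5p had 2863, 576, 115 and 37.3 CPM in B6 replicates 1 to 4 against 31.0 to 90.9 CPM in BTBR. miR-204-5p had 26966, 12241, 4707 and 4157 CPM against 2650 to 7739 CPM. The part of single mice in these fold changes was not tested. The part of any of these cell types in the levels of the cluster was not tested.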

How the data were processed

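The authors prepared TruSeq small RNA libraries from the hippocampal tissue of single mice, removed adapters, mapped the reads with sRNAbench (Bowtie) to GRCm38 and deposited, without normalization, the number of reads per miRNA as whole-number counts for 422 miRNAs in 8 libraries. FastQC 0.11.2 is named in the submitters' processing notes; the versions of Bowtie and sRNAbench are not given in the sources used here. Reads lying within miRBase coordinates were assigned, so that reads running past an annotated end may be missing from an arm. Without molecular identifiers, intervals on counts reflect counting error only.

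Columns were matched to mice by library name. The whole table was fitted with edgeR 4.0.16 in R 4.3.3 (TMM, quasi-likelihood test, no covariate), with Benjamini-Hochberg adjustment across all 422 miRNAs at the study's threshold of 0.1. No miRNA was filtered out. The lowest count in the table was 1, so that every row was counted in every library. The shares over all miRNAs hold for such rows only, and the table does not show which miRNAs were left out before it was deposited. Standard errors come from the fold change and its F statistic. Ratios were taken between raw counts and compared by exact permutation, at a threshold of 0.05. Correlations used log2(CPM + 0.5). Sequences came from RefSeq, 3′UTRs from GENCODE (the longest per gene), and hairpins were folded with RNAfold 2.7.2. Python 3.11.15, scipy 1.17.1 and matplotlib 3.10.9 served for the rest. The steps were tested on simulated data.

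The arms described are those present in the table; for each arm the 3 miRNAs with the highest Pearson correlation were named, and from each list those past the threshold and at most 3 of the most abundant. miR-140, miR-411, miR-1298-5p, miR-448-3p and miR-451a were named for their calls. The members and lists were chosen with earlier results of these data known. The result of 1 further list is not reported here. Labels do not name cages or litters. Alternatives were DESeq2 1.42.0, edgeR's exact test, limma-voom (limma 3.58.1), other normalizations, edgeR's filter on low counts, rows of identical counts merged, a replicate block, robust dispersions, pseudocounts, other measures of likeness and each mouse left out in turn. Leaving out mice from the spread within strains, and summing markers of identical counts once, were chosen after seeing the data. Dixon's test was not among the tests planned beforehand. DESeq2 gave an adjusted p to 372 miRNAs, and the others stayed out of its counts.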

Additional observations from a re-analysis of the deposited data

How the results depend on the processing

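The arms of the cluster stayed short of the threshold in every one of the 18 alternatives each, with adjusted p from 0.298 to 0.894 for miR-221-3p, 0.545 to 0.959 for miR-221-5p and 0.419 to 0.901 for miR-222-3p. miR-221-3p and miR-222-3p kept a negative log2 fold change in all 18, from −0.49 to −0.18 and from −0.63 to −0.18. miR-221-5p was positive in 17, and with single mice left out it ranged from −0.22 (without BTBR replicate 2) to 0.57. It was 0.056 with limma-voom and 0.16 with the replicate number as a block, against 0.36. The ratio of miR-222-3p to miR-221-3p changed sign with single mice left out (−0.22 to 0.0845) and as the difference of the fitted fold changes (0.0051), a change within its spread. The ratio of miR-222-3p to miR-221-5p kept its sign in all 11 alternatives and ranged from −0.77 to −0.39 with single mice left out, passing 0.05 only without B6 replicate 2 and before adjustment over the ratios. With so few assignments, 1 ratio alone cannot pass 0.05 after that adjustment. The ratio of the miR-221 arms kept its sign in all 11 and did not pass 0.05 with any mouse left out, but ranged from 0.17 (without BTBR replicate 2) to 0.74 (without B6 replicate 2). With at least 10 counts per library required, the hairpins whose arm ratio did not overlap between strains were again 2. The pooled spread of miR-221-3p moved to 0.23 with scaling by library totals only. With single mice left out, chosen after seeing the data, it ranged from 0.23 (without B6 replicate 2) to 0.38, and that of miR-221-5p from 0.36 (without BTBR replicate 2) to 0.71. Of all miRNAs, 7 passed in the reported fit, 21 with DESeq2, 16 with edgeR's exact test, 4 with scaling by library totals only, and 3 to 13 with single mice left out (13 without B6 replicate 2, 4 without BTBR replicate 1 and 3 without BTBR replicate 3 or 4). Scaling by library totals moved the median log2 fold change of all miRNAs from 0.02 to 0.15. The cause of these shifts was not tested. Replicate numbers did not pair the mice, since the correlation of deviations lay between −0.15 and 0.05 and 1 of 4 B6 mice correlated best with its own number. With the replicate number as a block 3 miRNAs passed, and the block changed no call of an arm. For the ratios the block says nothing of stability, since sign flips over 4 pairs allow no exact permutation p below 0.125, the value of the miR-221 arm ratio and of miR-222-3p to miR-221-5p, while miR-222-3p to miR-221-3p gave 0.75. The most similar miRNA to miR-221-3p and miR-221-5p was another one when deviations from the strain means were used. With 71 to 155 reads per library, miR-222-3p had the widest counting error of the arms.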
